A study of Mus musculus with 2 samples.

Results

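Occupancy of chromatin by the thyroid hormone receptor TRα1 was described around 10 genes of insulin signalling and its FoxO branch (Insr, Igf1r, Irs1, Irs2, Grb10, Pik3r1, Akt2, Tbc1d4, Foxo1 and Foxo3) in mouse brown adipocytes. A peak of the deposited list is referred to as a TR binding site (TRBS), and its summit is the position of the highest pileup of fragments. The rule took each TRBS whose summit lay within 100 kb of the transcription start site (TSS) of a gene, or up to 400 kb away if no other protein-coding TSS was nearer. This gave 41 TRBS of the 5107 in the list, of which 9 lay within 30 kb of a TSS, the distance at which the study linked a TRBS to a gene. The 10 genes were named with earlier results of these data known, and the 41 TRBS were selected on the measured positions of the peaks. Their number and their distances are therefore a description, without any test.

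The tissue was brown fat of male C57BL/6J mice, 8 to 12 weeks old, in which only brown adipocytes expressed TRα1 with a protein tag called GS. All animals received food with propylthiouracil, which blocks thyroid hormone synthesis, for 2 weeks, followed by thyroid hormone for 24 h. The series gave 1 library of chromatin precipitated through TRα1 and 1 library of the same chromatin before precipitation (input). Both libraries shared genotype and treatment, so no effect of the hormone could be measured. Hypothyroid tissue without hormone was not analysed here. The transgene that restricted the receptor to these cells, and any pooling of animals, are not given in the sources used here. A peak list holds no expression values, so the cell type rests on the labels.

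Insulin acts through the insulin receptor, a tyrosine kinase that phosphorylates the adaptor proteins IRS1 and IRS2. These recruit phosphoinositide 3-kinase, whose lipid product activates the kinase AKT. AKT phosphorylates TBC1D4, which allows the glucose transporter GLUT4 to reach the cell surface, and it phosphorylates the FoxO transcription factors, which then leave the nucleus. Brown adipocytes take up much glucose in response to insulin, and thyroid hormone is a known activator of their heat production. Thyroid hormone receptors bind DNA mainly as heterodimers with RXR, on pairs of the half-site AGGTCA. The preferred pair is a direct repeat with a spacer of 4 bp, called DR4.

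The sequences at the strongest sites are shown first, because the text returns to them. The highest-scoring TRBS of each of 4 genes is given with 100 bases on each side of the summit, on the plus strand of GRCm38 (sequence from RefSeq). Capitals mark half-sites (AGGTCA or GGGTCA, on either strand), and in the Irs2 sequence the DR4. A TRBS of Akt2 scored higher than those of Igf1r and Insr, but it lies in a 5′ UTR and is described by its position alone.
Foxo1 (chr3:52622640-52622840): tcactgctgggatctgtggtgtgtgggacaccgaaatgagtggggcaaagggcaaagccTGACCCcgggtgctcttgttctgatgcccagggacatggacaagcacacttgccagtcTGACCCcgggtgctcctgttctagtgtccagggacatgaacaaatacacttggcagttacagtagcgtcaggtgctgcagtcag
Irs2 (chr8:10895249-10895449): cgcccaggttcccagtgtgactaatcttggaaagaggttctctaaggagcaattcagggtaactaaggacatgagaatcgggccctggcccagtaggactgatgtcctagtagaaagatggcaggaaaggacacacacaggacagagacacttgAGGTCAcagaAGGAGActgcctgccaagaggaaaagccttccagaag
Igf1r (chr7:68097067-68097267): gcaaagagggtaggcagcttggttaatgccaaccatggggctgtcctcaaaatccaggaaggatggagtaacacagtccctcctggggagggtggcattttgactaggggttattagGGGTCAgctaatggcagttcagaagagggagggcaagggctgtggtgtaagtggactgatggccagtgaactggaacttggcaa
Insr (chr8:3278377-3278577): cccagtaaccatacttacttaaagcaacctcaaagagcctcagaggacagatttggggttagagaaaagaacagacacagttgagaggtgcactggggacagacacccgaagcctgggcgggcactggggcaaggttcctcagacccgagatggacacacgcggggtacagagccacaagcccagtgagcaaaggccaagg

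The Foxo1 sequence holds 2 copies of the GGGTCA half-site, read on the minus strand, which lie 58 bp apart. The stretches that start at the 2 copies share 35 of 40 bases, so this summit sits in a short imperfect repeat. The Irs2 sequence holds a DR4 near its right end, in which the left half-site matches AGGTCA in full and the right one does not. The Igf1r sequence holds 1 half-site, and the Insr sequence holds none.

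**Figure D1:**
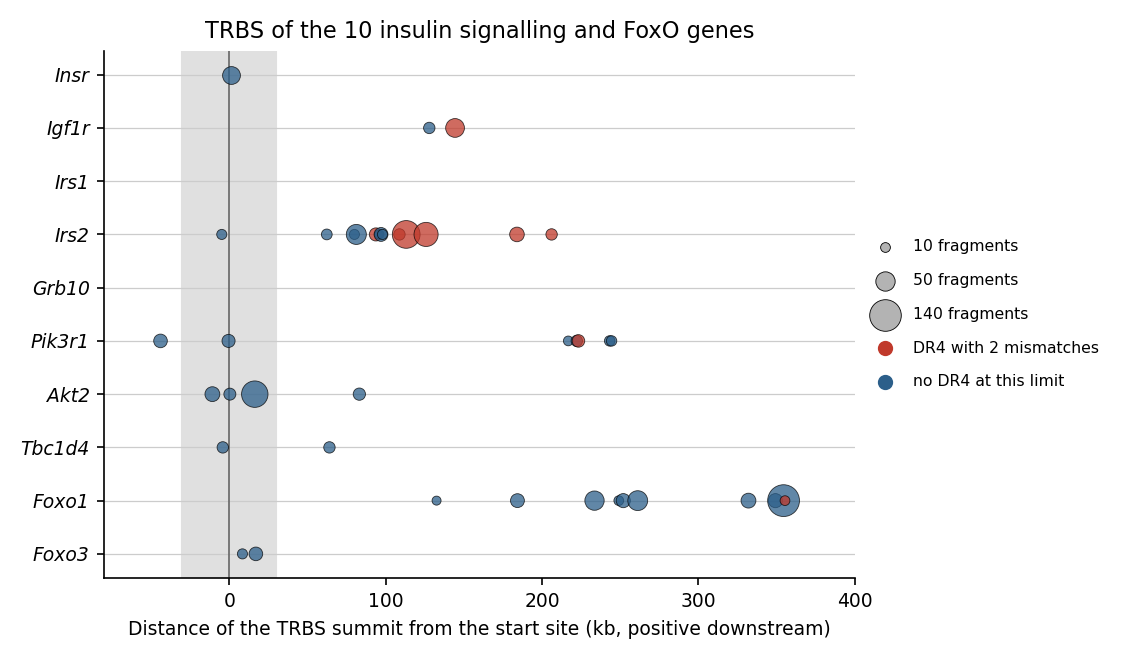
Position of the 41 TRBS around the TSS of the 10 genes, which are listed by row. The horizontal axis is the distance from the TSS in kb, positive downstream, point area grows with the ChIP fragments at the summit, colour marks a DR4 with 2 mismatches and the grey band is the limit of 30 kb. Irs2 has 13 TRBS and Foxo1 has 10, almost all downstream, while Irs1 and Grb10 have none.

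Of the 10 genes, 6 had a TRBS within 30 kb. In the whole genome this was the case for 16.7% of 21938 protein-coding genes, and a TRBS within 100 kb was found for 38.3% of them. The same 6 genes were reached at 100 kb. The values that chose the set lie in these counts, so nothing is read from the difference. Just inside the limit of 30 kb was the Foxo3 TRBS at 16984 bp, and just outside was a Pik3r1 TRBS at 43996 bp. At the limit of 100 kb, the neighbours were Irs2 TRBS at 97923 and 108788 bp. The most distant TRBS, at 355319 bp, belonged to Foxo1.

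Fragment numbers were recovered from the fold and p-value deposited for each peak. The 41 TRBS had a median of 19 ChIP fragments at the summit, with a range from 8 to 142. All TRBS of the list, here the 5047 of 5107 with a unique fragment number, had a median of 17. A single TRBS with 17 fragments has an exact 95% Poisson interval of 9.90 to 27.2. This interval, and all intervals of fragments given here, cover counting error only, since there was no replicate. The 9 TRBS within 30 kb had a median of 21 fragments, from 11 to 97. The input background at the summits had a median of 0.609 fragments on the scale of the ChIP library, against 0.672 for all TRBS. It stayed between 0.430, the genome-wide level, and 2.44. The background reached 630 fragments elsewhere in the list, and none of the 41 summits lay in such a region.

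**Figure D2:**
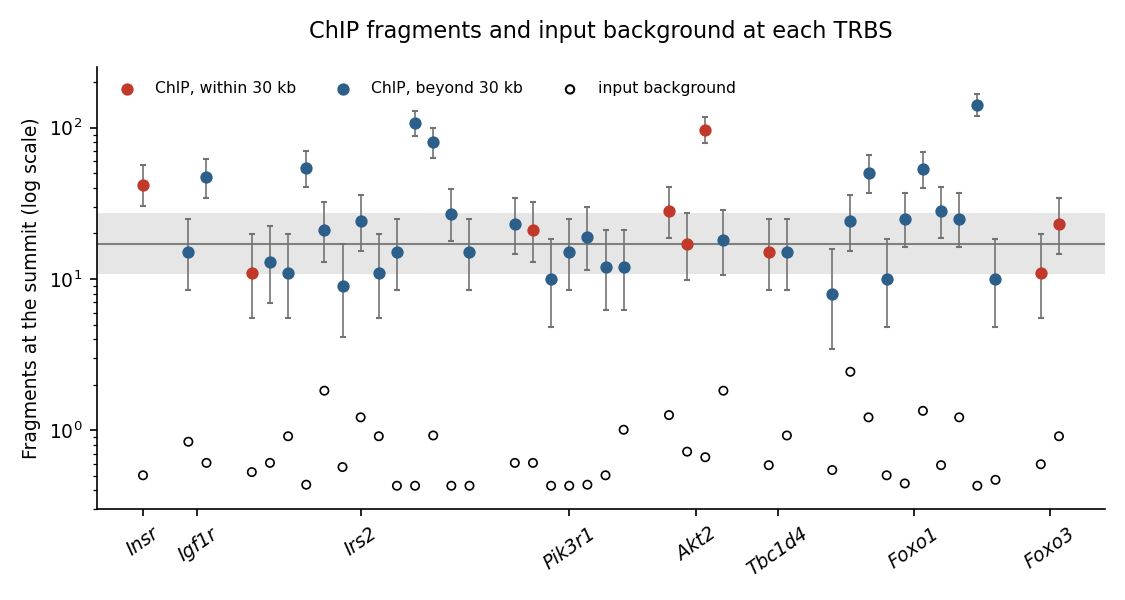
ChIP fragments and input background at each of the 41 TRBS, on a logarithmic axis, grouped by gene. Filled points are ChIP fragments with exact 95% Poisson intervals (red within 30 kb of the TSS, blue beyond), open circles are the background, and the line and band are the median and middle 50% of all TRBS (17, from 11 to 27). ChIP fragments run from 8 to 142 and the background from 0.430 to 2.44, with folds from 5.82 to 100.

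Among the receptors, Insr encodes the insulin receptor itself. Its only TRBS (chr8:3278194-3278759) lay in an intron, 1140 bp downstream of the TSS, with 42 fragments (30.3 to 56.8) and a fold enrichment of 28.6. It was the second-strongest of the 9 near TRBS, and it stood alone, with the closest other TRBS of the list 189377 bp away. Igf1r encodes the receptor of the insulin-like growth factor IGF1, which signals through the same adaptors. It had no TRBS within 100 kb of its TSS. Its 2 TRBS were intronic, at 127862 bp (chr7:68080491-68080943) and 144340 bp (chr7:68096829-68097542), inside a long gene. The first had 15 fragments (8.40 to 24.7) and the second 47 (34.5 to 62.5, fold 29.8). The intervals do not overlap, and the stronger TRBS was close to that of Insr in fragments and fold.

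Among the adaptors, Irs2 differed from Irs1 and Grb10. IRS1 and IRS2 are the main substrates of the insulin receptor, and GRB10 binds the receptor and inhibits it. Irs2 had 1 TRBS within 30 kb (chr8:11013129-11013455), located 4826 bp upstream of the TSS in the transcript 9530052E02Rik. It was weak, with 11 fragments (5.49 to 19.7) and a fold of 7.85. A further 12 TRBS lay downstream and are described below. Irs1 had none by the rule. The nearest summit was 131994 bp downstream (chr1:82159230-82159552, 10 fragments), nearer to the TSS of Gm9747. Grb10 was further from any TRBS than the other 9 genes. The nearest summit was 3731446 bp away, close to Vstm2a, with 22 fragments. At the depth of this list, a TRBS was not detectable near either gene, which does not show that the receptor is absent there.

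Among the kinases, Pik3r1 encodes the regulatory subunit p85α of phosphoinositide 3-kinase. A TRBS of 21 fragments (13.0 to 32.1, fold 13.7) covered its promoter, with the summit 500 bp upstream of the TSS (chr13:101768307-101768929). This interval was rich in GC, at 66.5%, against a median of 51.1% for all TRBS. A second TRBS lay 43996 bp upstream with 23 fragments (14.6 to 34.5). The other 5 lay downstream between 216753 and 244417 bp, far beyond the end of the gene, with 10 to 19 fragments. The nearest protein-coding TSS on either side of Pik3r1 are distant, with Cd180 at 925 kb upstream and Slc30a5 at 935 kb downstream.

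Akt2 encodes the AKT isoform that carries most of the effect of insulin on glucose uptake. It was the member with most TRBS within 30 kb, with 3. The strongest (chr7:27607533-27608120) lay 16285 bp downstream of the TSS of the gene record, with 97 fragments (78.7 to 118), a fold of 58.9 and a score of 1663. Its summit fell in a 5′ UTR, 89 bp from the start of another protein-coding transcript of Akt2. Its rank among the 5107 TRBS was 60. The TRBS at the annotated TSS (chr7:27591704-27592089, summit 346 bp downstream) had 17 fragments (9.90 to 27.2) and the highest GC content of the 41, at 75.4%. The TRBS 10831 bp upstream (chr7:27580561-27581098) had 28 fragments (18.6 to 40.5), in a coding exon of the neighbouring gene 2310022A10Rik. The interval of the strongest TRBS lies above those of both others. A further TRBS, 83145 bp downstream with 18 fragments, was 99 bp from the TSS of Map3k10 and belongs to Akt2 only through the limit of 100 kb.

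Tbc1d4, the AKT substrate that retains GLUT4 inside the cell until it is phosphorylated, had 2 TRBS of 15 fragments each (8.40 to 24.7). One lay 4175 bp upstream of the TSS (chr14:101613202-101613576) and the other in an intron, 64022 bp downstream. Both were near the median of the list, with folds of 10.1 and 8.32.

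Foxo1 and Foxo3 encode the transcription factors that carry the response to low insulin into the nucleus. Foxo3 had 2 intronic TRBS within 30 kb. The TRBS at 8398 bp (chr10:42268185-42268504) had 11 fragments (5.49 to 19.7), and that at 16984 bp (chr10:42259588-42260069) had 23 (14.6 to 34.5, fold 12.5). Their intervals overlap. The second was 1405 bp upstream of the start of another transcript of Foxo3. Foxo1 had no TRBS within 100 kb and was reached only by distant ones.

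**Figure D3:**
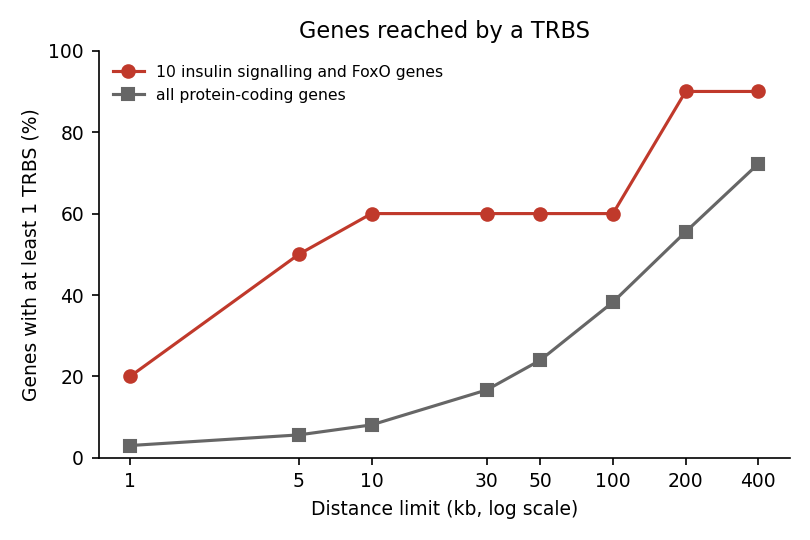
Share of genes with at least 1 TRBS as the distance limit grows from 1 to 400 kb (logarithmic axis), for the 10 genes and for all 21938 protein-coding genes. The share of the 10 genes stays at 60% from 10 to 100 kb and is 90% at 200 and 400 kb, while that of all genes climbs from 3.02% at 1 kb to 55.5% at 200 kb and 72.2% at 400 kb.

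The same number of genes was reached at every limit from 10 to 100 kb. At 1 kb, Akt2 and Pik3r1 were reached, or 20% of the set, against 3.02% of all genes. At 5 kb, 50% were reached, against 5.63% of all genes. From 10 to 100 kb the share was 60%, while that of all genes was 8.09% at 10 kb and 38.3% at 100 kb. At 200 kb Igf1r, Irs1 and Foxo1 were added, which made 90%, against 55.5% of all genes. Grb10 remained without a TRBS at 400 kb, where 72.2% of all genes were reached.

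Beyond 30 kb, 32 TRBS were found, and Irs2 and Foxo1 held 22 of them. The 12 downstream of Irs2 were spread from 62318 to 206077 bp, on the side away from Col4a2, in the gap of 855 kb that separates Irs2 from Myo16. The strongest, at 113109 bp (chr8:10894971-10895679), had 107 fragments (87.7 to 129), a fold of 75.5 and a score of 2083, rank 40 of the list. It is the one whose DR4 is shown above. The next were at 125810 bp (chr8:10882335-10883001) with 80 fragments (63.4 to 99.6) and at 81218 bp (chr8:10926530-10927521) with 54 (40.6 to 70.5). The other 9 had 9 to 27 fragments. The lower bound of the third, 40.6, lies just above their highest upper bound, 39.3. The TRBS upstream of Irs2, the only one near the TSS, thus had about the fragments of the weakest downstream ones.

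The region downstream of Irs2 holds annotated non-coding RNAs. Summits lay inside the lincRNAs Gm44955, 3930402G23Rik and Gm2814, and the TRBS with 80 fragments was 194 bp from the start of the lincRNA B930025P03Rik. The pair of TRBS at 79988 and 81218 bp lay 226 and 1456 bp from the start of 3930402G23Rik. The 4 TRBS between 93715 and 97923 bp were in no annotated gene, and each had another summit at most 2169 bp away. One more TRBS of Irs2, at 421 kb with 32 fragments, was outside the limit of 400 kb, so all 13 TRBS of the gap were nearer to Irs2 than to Myo16.

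Foxo1 held 10 TRBS, all downstream, between 132519 and 355319 bp. The gap between Foxo1 and the next protein-coding TSS, that of Cog6, spans 749 kb. The strongest TRBS (chr3:52622305-52623078) lay 354404 bp from Foxo1 and 394 kb from Cog6. It had 142 fragments (120 to 167), a fold of 100 over a background of 0.430 and a score of 2943. This was rank 18 of all 5107 TRBS and the highest score of the 41. Its sequence, the short repeat shown above, held no DR4. TRBS of 53 fragments (39.7 to 69.3, at 261149 bp, chr3:52529248-52529750) and 50 fragments (37.1 to 65.9, at 233517 bp, chr3:52501636-52502590) came next, and the other 7 had 8 to 28. The former, with 2 weaker TRBS at 249044 and 251913 bp, lay inside the lincRNA Gm30173.

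The midpoint between both TSS set which TRBS were counted for Foxo1. The gap held 14 TRBS, and the 4 beyond the midpoint were nearer to Cog6, a gene of vesicle transport in the Golgi. They lay 418, 486, 499 and 732 kb from Foxo1, with 130, 45, 110 and 33 fragments. The first of these (109 to 154 fragments, fold 68.5) and the one at 486 kb held a DR4, and the others did not. By the positions of the summits, the run of TRBS goes on across the midpoint. Which gene a distant TRBS acts on cannot be read from a peak list, for Foxo1, Irs2 or the others.

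**Figure D4:**
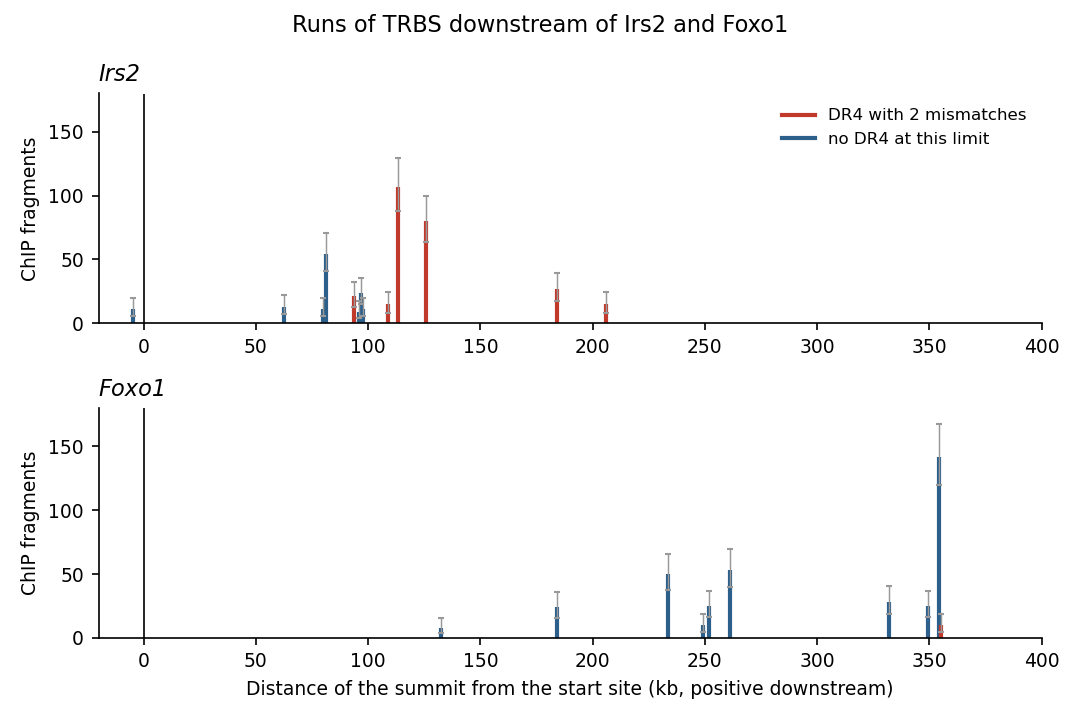
ChIP fragments of the TRBS around Irs2 (upper panel) and Foxo1 (lower panel) against their distance from the TSS in kb, positive downstream. Bars start at 0, whiskers are exact 95% Poisson intervals and colour marks a DR4 with 2 mismatches. The Irs2 run peaks at 113 kb with 107 fragments, and the strongest TRBS counted for Foxo1 has 142 fragments at 354 kb, beside a weak one of 10. TRBS nearer to Cog6, beyond the midpoint of the gap, are not drawn.

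Such runs were rare in the list. When every protein-coding gene was given the TRBS nearest to its TSS within 400 kb, Irs2 ranked 1 of 21938 with 13, Tns1 followed with 12 and Foxo1 ranked 3 with 10. These were the 3 genes with at least 10 TRBS, or 0.0137% of genes. Pik3r1, with 7, ranked 14 and shared that number with 9 other genes. The stretch of sequence nearest to the TSS, within the limit of 400 kb on each side, was 552 kb for Irs2 and 456 kb for Foxo1. Among the 1462 genes with a stretch of at least 400 kb the median was 0 TRBS. The part of stretch length in these counts was not tested. Per Mb of stretch, Irs2 had 23.5 TRBS, Foxo1 21.9 and Pik3r1 8.75. Akt2, with a stretch of 50.3 kb, had 59.6. With a score of at least 60, Irs2 kept 12 TRBS (rank 1) and Foxo1 9 (rank 3, a number held by 4 genes). With a score of at least 100, Irs2 kept 9 TRBS (rank 2) and Foxo1 7 (rank 3, held by 2 genes). The rule was extended to 400 kb because of a strong TRBS far from Foxo1, so the ranks are a description.

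The DR4 was searched on both strands of each whole peak, with at most 2 mismatches over the 12 bases of the half-sites. It was present in 9 of the 41 TRBS (22.0%, 95% Wilson interval 12.0 to 36.7%) and in 32.0% of all TRBS. The interval treats the TRBS as independent, which those of the same run are not. None of the 9 TRBS within 30 kb held a DR4, which at this number allows a share of up to 33.3%. The 9 TRBS with the element, all beyond 30 kb, held 12 copies, with 3 in the Irs2 TRBS at 183933 bp and 2 in the Pik3r1 TRBS at 223242 bp. For each TRBS the element with the fewest mismatches, and among equals the one nearest the summit, is listed by the score of the TRBS, with the half-sites in capitals and the spacer in lower case.
Irs2 (chr8:10895403-10895418, plus strand): AGGTCAcagaAGGAGA
Irs2 (chr8:10882680-10882695, minus strand): AGGTTAaacaAGGCCA
Igf1r (chr7:68097384-68097399, plus strand): AGTTCCagcaAGGTCA
Irs2 (chr8:10824498-10824513, minus strand): AAGTCAtagaAGGACA
Pik3r1 (chr13:101544964-101544979, plus strand): AGGTCCcttcAGGGCA
Irs2 (chr8:10802364-10802379, plus strand): AGGTCTcataAGGCCA
Irs2 (chr8:10899683-10899698, minus strand): AGGGGAggggAGGTCA
Irs2 (chr8:10914745-10914760, plus strand): AGGTCAgcccAGGTTT
Foxo1 (chr3:52623576-52623591, minus strand): AGGTCAagaaAGGACT

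Of the 9 TRBS, 6 were among the 13 of Irs2, and they held 8 of the 12 elements. All 9 listed elements had 2 mismatches, and 8 of them were within 100 bp of the summit. In 5 of the 9 listed, one half-site matched AGGTCA in full and the mismatches fell in the other. The 2 strongest TRBS with the element were those of Irs2 at 113109 and 125810 bp. The strongest TRBS of Foxo1, Akt2 and Insr had none. No element with at most 1 mismatch was found in the 41 TRBS, which allows a share of up to 7.32%, and 7.23% of all TRBS held one. With 3 mismatches allowed, the shares were 75.6% and 72.5%.

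Elements without a TRBS were frequent in the same regions. The stretches in which a TRBS could be assigned to one of the 10 genes add up to 3830 kb, and they held 393 DR4 with at most 2 mismatches, of which 12 (3.05%) were in a TRBS. In the whole genome this was 0.711% of 290078. The genes and the limit of 400 kb were chosen with results of these data known, so nothing is read from this difference. The Irs2 stretch held 74, of which 8 were in a TRBS. The stretches of Irs1 and Grb10 held 20 and 22 and had no TRBS. Of the 41 better elements, with at most 1 mismatch, none was in a TRBS (up to 7.32%), against 1.91% of 22256 in the genome.

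A half-site (AGGTCA or GGGTCA) was present in 26 of the 41 TRBS (63.4%, 48.1 to 76.4%) and in 72.5% of all TRBS. Exact pairs of half-sites with spacers up to 10 bp were searched as well, in direct, inverted and everted order. Only 1 was found, a DR1 in the Foxo1 TRBS at 233517 bp. The DR1, a direct repeat with a spacer of 1 bp, is the type of element bound by PPAR and RXR. This copy lies 728 bp from the summit, near the edge of a peak of 955 bp.
Foxo1 DR1 (chr3:52502575-52502587, minus strand): AGGTCAcAGGTCA

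**Figure D5:**
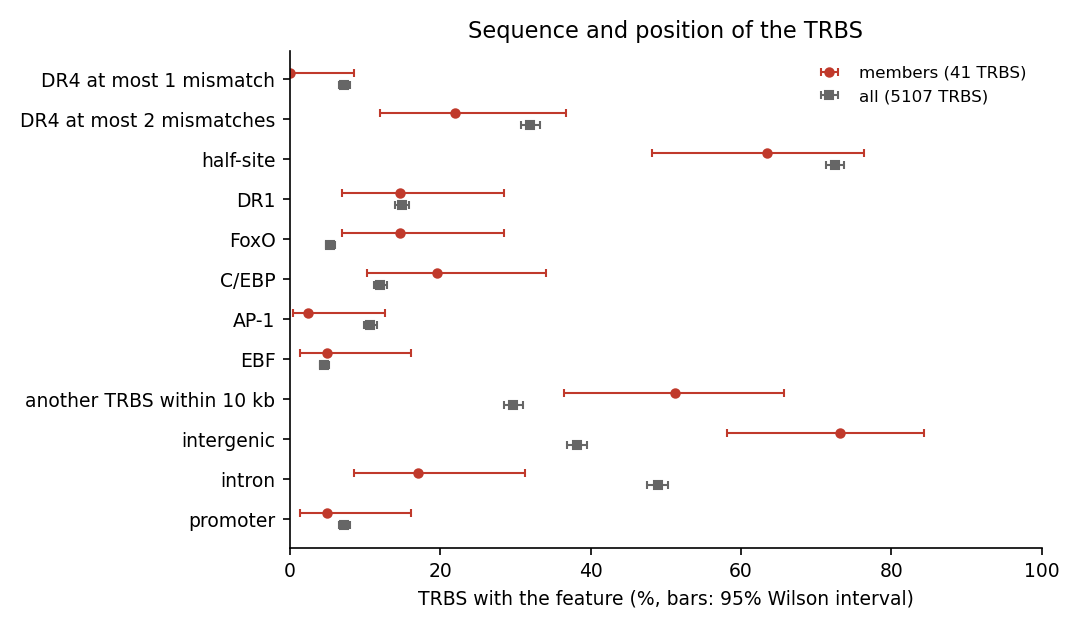
Share of TRBS with each sequence or position feature, in percent, for the 41 TRBS and for all 5107, with bars for the 95% Wilson interval. Intergenic means outside protein-coding genes and their promoters, and includes non-coding RNAs. Intergenic position (73.2% against 38.2%) and another TRBS within 10 kb (51.2% against 29.7%) lie to the right of the whole list. Intron position (17.1% against 48.9%) lies to the left.

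Motifs of other factors were searched on both strands, and a match is only a run of letters. The FoxO motif TGTTTAC was present in 6 of the 41 TRBS (14.6%, 6.88 to 28.4%) and in 5.35% of all TRBS. Of these 6, 3 were downstream of Irs2, 2 downstream of Foxo1 and 1 in the intron of Foxo3, at 16984 bp. The lower bound lies above the share of the list, but this was 1 of several motifs and the 6 TRBS belong to 3 genes. The C/EBP motif TTGCGCAA, with at most 1 mismatch, was present in 19.5% (10.2 to 34.0%) and 12.0%. The AP-1 motif (TGA and TCA, separated by C or G) was found in 1 TRBS, that at the promoter of Map3k10, against 10.6% of the list. A DR1 with at most 2 mismatches was present in 14.6% and 14.9%, and the EBF motif (TCCC and GGGA, separated by 2 free bases) in 4.88% and 4.54%.

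Positions were assigned by protein-coding genes alone. Intergenic means outside these genes and their promoters, so summits inside non-coding RNAs are counted as intergenic. By position, 30 of the 41 summits were intergenic (73.2%, 58.1 to 84.3%), against 38.2% of all TRBS, and 7 were in introns (17.1%, 8.53 to 31.3%), against 48.9%. Of the 30 intergenic summits, 28 were more than 30 kb from the TSS, and beyond 100 kb the rule admits a TRBS only where no other protein-coding TSS is nearer. Within 30 kb, 4 of 9 were in introns. A position downstream of the nearest protein-coding TSS was found for 35 of 41 (85.4%, 71.6 to 93.1%), against 61.1% of all TRBS. Another TRBS within 10 kb was present for 21 of 41 (51.2%, 36.5 to 65.7%), against 29.7%. TRBS of the same run are not independent of each other. The 41 TRBS were similar to the list in GC content (medians of 50.9% and 51.1%) and repeat content (6.29% and 7.01%), and their median width was 503 bp, against 424 bp. When all TRBS were cut by score into 4 classes of equal size, the 41 fell as 5, 13, 11 and 12 from the weakest to the strongest, and 9 were in the top 10%.

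The rest of the pathway was described with a list of 98 other genes, which was compiled with results of these data known. A TRBS within 30 kb was present for 33 of the 98 (33.7%, 25.1 to 43.5%), against 16.7% of all protein-coding genes. Targets of FoxO factors were reached most often, with 12 of 22. Adaptors of the receptor followed with 5 of 13, negative regulators with 4 of 11 and substrates and effectors of AKT with 5 of 14. Of AKT and its kinases 3 of 12 were reached, and of the FoxO family and its partners 2 of 10. None of the 6 ligands and receptors was. The groups are small, and their Wilson intervals overlap.

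Among these genes, Akt1, the most widely expressed AKT isoform, had the TRBS with the highest score (chr12:112670359-112671353), 3802 bp downstream of the TSS with 101 fragments (82.3 to 123, fold 53.0) and a DR4. The strongest TRBS of Akt1 and Akt2 were thus of similar height, and their intervals overlap. Bcl6, a repressor induced by FoxO factors, had 120 fragments (99.5 to 143) at 9256 bp, over a background of 2.13, in a TRBS nearer to the TSS of Gm37419. The muscle ubiquitin ligases Trim63 and Fbxo32, classical FoxO targets, had TRBS with 66 and 58 fragments, of which the former was nearer to the TSS of Pdik1l. Foxo6, another member of the FoxO family, had 78 fragments (61.7 to 97.3) at 9483 bp in an intron.

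The list of FoxO targets held 3 more of these 10 genes with more than 1 TRBS within 30 kb. Pdk4, an inhibitor of pyruvate oxidation, had 4 TRBS within 30 kb, the strongest with 64 fragments (49.3 to 81.7). Pnpla2, the lipase that starts the breakdown of stored fat, had 5. The strongest (46 fragments, 33.7 to 61.4) lay 1096 bp downstream of the TSS with a DR4 of 1 mismatch. This was the closest match among the strongest TRBS of these 10 genes. G6pc, an enzyme of glucose release in the liver, had 3, the strongest with 44 fragments. The strongest TRBS of Shc1, an adaptor of receptor tyrosine kinases, had 48 fragments and was at the promoter of Zbtb7b. That of Map1lc3b, a protein of autophagy, had 44 and lay in an intron nearer to Fbxo31.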

How the data were processed

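Per the submitters' processing notes, the authors aligned paired-end reads to mm10 with Bowtie2 (2.3.2.2) and called peaks with MACS2 (2.1.1.20160309.6) in 1 ChIP library against 1 input library. The deposited score of each peak is 10 times its −log10 q-value. The deposited fold is the ratio of ChIP pileup to input background at the summit, with a pseudocount of 1 on both. The authors' Poisson test of pileup against background gave each deposited −log10 p-value, and the q-value was derived from it. The study kept peaks scored 60 or more, but 897 peaks of the deposited list were below this threshold, and all 5107 were used.

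The whole number of ChIP fragments and the background were solved from fold and p-value. For 5085 peaks (99.6%) a whole number met the p-value within 0.0005 on the −log10 scale, and for 5047 it was unique. Read totals were not used here. The median peak had 17 fragments, and intervals cover counting error only, since fragments may be copies of the same molecule.

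Start sites were the 5′ ends of GENCODE M21 gene records on GRCm38 (21938 protein-coding genes). Promoters ran from 1000 bp upstream to 100 bp downstream of a start site. Peak starts were read as 0-based and are printed 1-based. The 10 genes, the list of 98 genes and the motifs were chosen with earlier results of these data known. All 10 genes were named, and of the 98 the 10 with the highest score of a peak within 30 kb. One functional group of the 98 is not reported here. No test was made, because there was no replicate and the rule uses the peaks. Intervals are exact Poisson for fragments and Wilson for shares, at 95%. The upper limit of a share of 0 is 3 counts of the total. The scripts were tested on simulated peaks (Python 3.11.15, numpy 2.4.6, pandas 2.3.3, scipy 1.17.1, matplotlib 3.10.9).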

Additional observations from a re-analysis of the deposited data

How the results depend on the processing

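Of 31 recomputed values, 25 stayed within 1.5 times the count or within the 95% interval of the value reported, and 6 moved. For the median of fragments, the interval was the counting interval of a single peak with that number. The number of genes with a TRBS within 30 kb was 6 under every alternative except a score of at least 100, where it was 5. The 41 TRBS became 39 with a score of at least 60, 30 with at least 100, 42 when the start of any protein-coding transcript was used and 35 when peaks closer than 1000 bp were merged. The share of all genes with a TRBS within 30 kb fell from 16.7% to 14.1% and 11.3% at these scores.

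The distance limit moved the share of the 98 pathway genes, from 33.7% at 30 kb to 19.4% at 10 kb and 57.1% at 100 kb, and the number of TRBS near the 10 genes from 9 to 19 at 100 kb. The mismatch limit moved the share of TRBS with a DR4 from 22.0% to 0 with at most 1 mismatch and to 75.6% with at most 3. Among the TRBS within 30 kb alone, it was 0. No paired analysis was possible because the series gave 1 ChIP library and 1 input library.

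A TRBS of 8 to 15 fragments, as for many of these sites, has a wide counting interval, and a weaker site would not be listed. For Irs1 and Grb10, missing binding and missed detection cannot be told apart in 1 library. Differences between animals, and the effect of thyroid hormone on any of these sites, could not be estimated.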
